A study of Mus musculus with 20 samples.

Results

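The genes described here are 10 members of the salt-inducible kinase and CREB pathway: the kinases Sik1, Sik2 and Sik3, the transcription factors Creb1 and Crem, the CREB coactivators Crtc2 and Crtc3, and the cyclic AMP phosphodiesterases Pde4b, Pde4c and Pde4d. They were chosen by gene family and by measured values, the exercise response of Sik1 in these same counts, with earlier results in view. Their rows were taken by symbol from the deposited table of counts. All 10 of 10 were found among its 53311 rows, and all 10 passed the filter on low counts that kept 13560 genes.

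RNA was sequenced from mouse gastrocnemius, a calf muscle, in 4 groups of 5 samples. Per the labels every animal, controls included, carried Cre together with loxP-flanked Bmal1 alleles (Cre+:iMSBmal1 fl/fl). Bmal1, whose gene symbol is Arntl, encodes a transcription factor of the circadian clock. The first group received vehicle and no exercise, and the second received vehicle and acute exercise. The other 2 groups were labelled iMSBmal1KO, again without and with acute exercise. Resting muscles were taken at zeitgeber time 13, counted in hours. Exercised muscles were taken 1 h after 30 min on a treadmill at that time. If the run itself was at zeitgeber time 13, exercised muscles were taken later in the day than resting ones. Exercise and time of day then cannot be told apart. The labels give neither the agent that induces the deletion, nor the promoter that drives Cre, nor the animals' age and sex. They do not state that samples came from separate animals, so the p-values measure the spread between these samples.

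Cyclic AMP activates protein kinase A, which phosphorylates CREB on DNA and also phosphorylates the salt-inducible kinases. The salt-inducible kinases belong to the AMPK family, need phosphorylation by LKB1 to be active, and hold the CRTC coactivators and class IIa histone deacetylases in the cytoplasm. Protein kinase A inhibits them, so that CRTC proteins enter the nucleus and join CREB. Phosphodiesterases of the PDE4 family break cyclic AMP down, and Sik1 and Crem are themselves known CREB targets that act back on the pathway.

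The libraries held 8045154 to 11269812 counts each, with a median of 9024900. Levels are given as CPM (counts per 1e6 counts of a library) after scaling libraries by the trimmed mean of M-values, in the order of replicates 1 to 5 where single values are listed. Arntl was not lower in the knockout-labelled groups. Its mean was 12.3 ± 2.39 CPM (SD, n = 5) in vehicle at rest and 14.5 ± 1.94 in knockout-labelled muscle at rest. After exercise it was 14.3 ± 5.71 in vehicle and 16.4 ± 4.15 in knockout-labelled muscle. For Arntl the genotype difference had an edgeR adjusted p of 0.725 at rest and of 0.689 after exercise. Gene-level counts do not show which exons were read, so every genotype direction below rests on the labels alone. Of the markers of the labelled tissue, all 6 skeletal muscle genes passed the filter and none was at 0 across libraries. A slow-fibre score, the mean log2 CPM of 7 slow-fibre genes including Myh7, separated libraries within groups. It was under 3 in 5 of 20 libraries: vehicle at rest 5, vehicle after exercise 2 and 4, and knockout-labelled after exercise 2 and 4. Summed slow-fibre CPM ran from 75.8 to 2420 in vehicle at rest, 35.5 to 2340 in vehicle after exercise, 211 to 3540 in knockout-labelled at rest and 48.3 to 2380 in knockout-labelled after exercise. Values with and without the 5 libraries are given where they bear on a member.

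Sik1, the kinase of the family whose mRNA is induced by cyclic AMP, had the widest fold range of the 10 genes, 13.5-fold between its lowest and highest library. In vehicle muscle at rest it measured 14.2, 11.3, 15.7, 8.49 and 7.55 CPM. In vehicle muscle after exercise it measured 70.8, 74.9, 94.1, 102 and 48.8 CPM. Every exercised vehicle library lay above every resting one. In knockout-labelled muscle at rest the values were 18, 22.5, 10.1, 12.4 and 17.6 CPM. In knockout-labelled muscle after exercise they were 34.1, 16.4, 37.6, 16.9 and 36.3 CPM. Here the groups overlapped: replicates 2 and 4 lay within the resting range, while replicates 1, 3 and 5 lay above it.

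The fitted log2 fold change of Sik1 with exercise was 2.77 (SE 0.30) in vehicle, a 6.83-fold difference, and 0.82 (SE 0.29) in knockout-labelled muscle, a 1.76-fold difference. The difference between both responses was -1.95 (SE 0.41). Between genotypes, Sik1 differed by 0.49 (SE 0.30) at rest and by -1.46 (SE 0.28) after exercise, where the highest knockout-labelled library (37.6 CPM) stood below the lowest vehicle library (48.8 CPM). These values are a description with no test, since the Sik1 response was known when the genes were listed. The exercise response in vehicle and the genotype difference after exercise share the exercised vehicle libraries and are not separate observations.

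Slow-fibre content moved with the Sik1 values of exercised knockout-labelled muscle. Replicates 2 and 4, the low-score libraries, held 16.4 to 16.9 CPM, and the other 3 held 34.1 to 37.6 CPM. In exercised vehicle muscle the order was not the same: the low-score libraries held 74.9 to 102 CPM and the others 48.8 to 94.1 CPM. Without the 5 low-score libraries the log2 fold change of Sik1 with exercise was 2.51 in vehicle and 1.16 in knockout-labelled muscle. Without them the genotype difference of Sik1 after exercise was -0.98. What part slow-fibre content had in the Sik1 values was not tested.

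**Figure D1:**
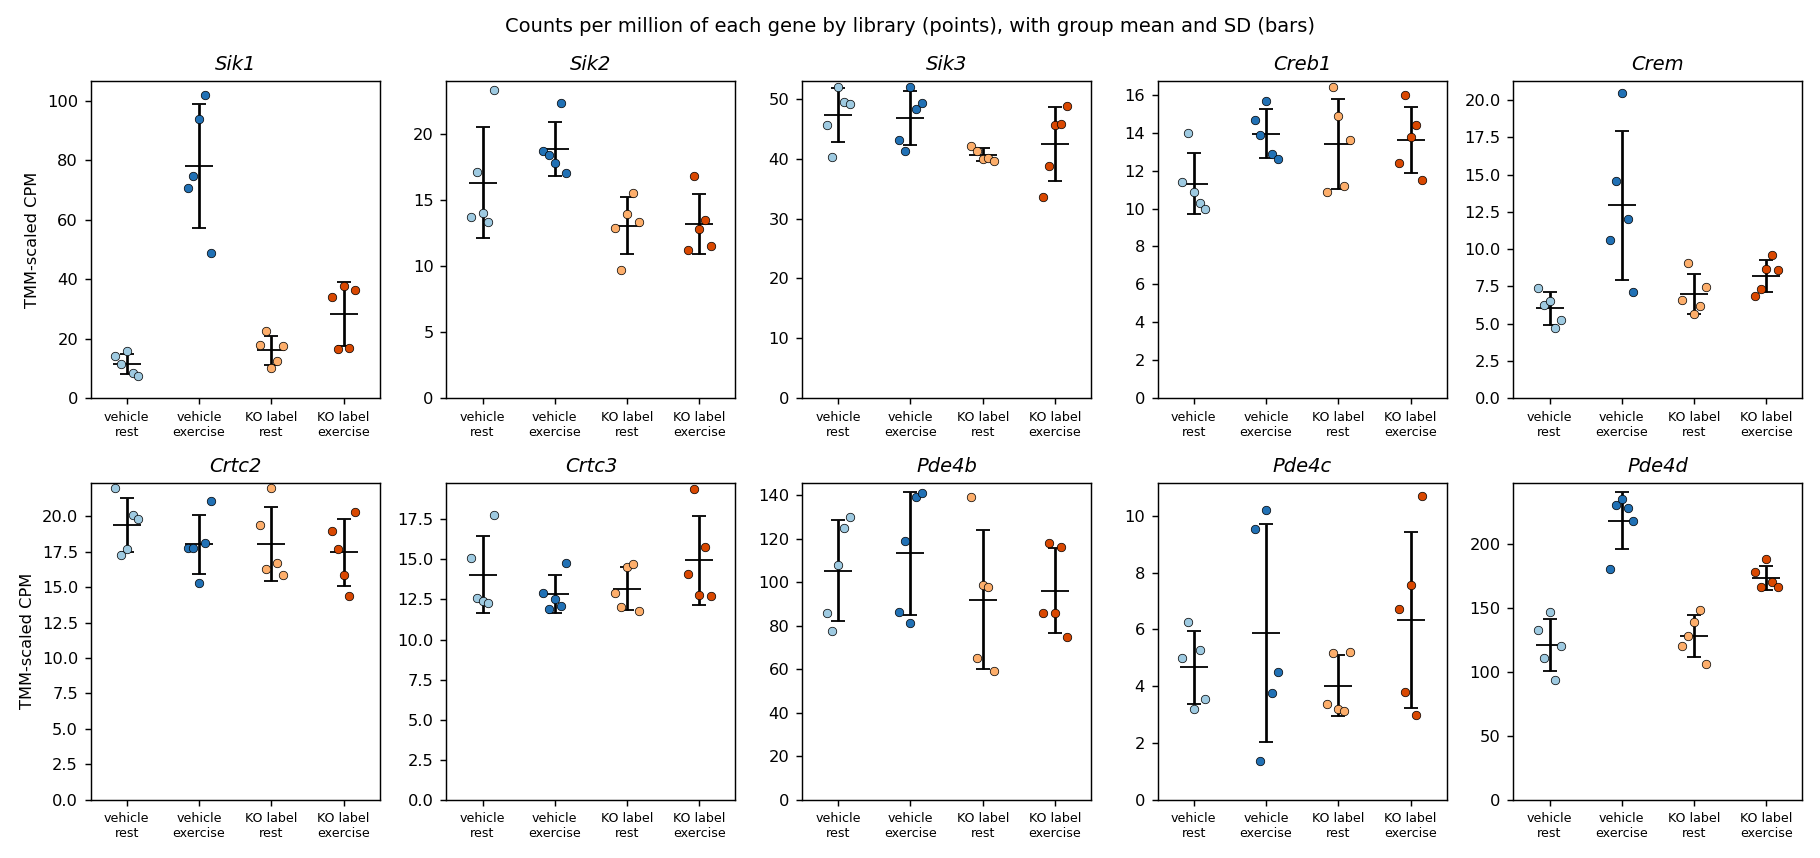
Level of each of the 10 genes in every library (TMM-scaled CPM, y axis from 0) for the 4 groups of 5 libraries (KO label: knockout-labelled), with the group mean ± SD. The Sik1 values of exercised vehicle muscle, 48.8 to 102 CPM, lie above all others, while Sik3 and Crtc2 show overlapping groups.

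Sik2, a kinase best known from fat cells and melanocytes, was much flatter. It measured 13.7, 17.1, 14, 13.3 and 23.3 CPM in vehicle at rest, and 18.7, 18.4, 17.8, 22.3 and 17 CPM in vehicle after exercise. In knockout-labelled muscle it measured 12.9, 9.65, 13.9, 15.5 and 13.3 CPM at rest, and 11.2, 16.8, 12.8, 13.5 and 11.5 CPM after exercise. The resting groups overlapped, and after exercise the lowest vehicle library (17 CPM) stood just above the highest knockout-labelled library (16.8 CPM). Exercise left Sik2 below the threshold in vehicle (log2 0.21, SE 0.15, edgeR adjusted p = 0.783) and in knockout-labelled muscle (0.01, SE 0.16, adjusted p = 1). After exercise Sik2 was lower in knockout-labelled muscle by -0.52 (SE 0.15, edgeR adjusted p = 0.0442), while at rest the difference was -0.32 (SE 0.15, adjusted p = 0.348).

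That Sik2 call was a narrow one. It was lost on leaving out vehicle exercise replicate 1 (adjusted p = 0.069), 2 (0.0695) or 4 (0.119), or knockout-labelled exercise replicate 1 (0.102), 3 (0.0697), 4 (0.0711) or 5 (0.0887), and it held at 0.0457 without the 5 low-score libraries. Exons of Sik2 share 15% of their bases with Ppp2r1b on the opposite strand, a regulatory subunit gene of protein phosphatase 2A. Ppp2r1b had log2 -0.46 in the same comparison (adjusted p = 0.0543), and the strand setting of the counting is not given in the sources used here, so reads of the overlapping genes cannot be told apart.

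Sik3, a kinase with roles in metabolism and sleep, was the most evenly expressed of the 3. It measured 45.6, 40.4, 52, 49.6 and 49.1 CPM in vehicle at rest, and 43.2, 41.3, 52.1, 48.4 and 49.3 CPM after exercise. Knockout-labelled muscle held 42.2, 41.4, 40, 40.2 and 39.7 CPM at rest, and 33.6, 38.8, 45.6, 45.8 and 48.8 CPM after exercise. All 4 groups overlapped. The log2 difference with exercise was -0.01 (SE 0.10) in vehicle and 0.06 (SE 0.10) in knockout-labelled muscle. The genotype difference of Sik3 was -0.22 (SE 0.10, edgeR adjusted p = 0.282) at rest and -0.14 (SE 0.10, adjusted p = 0.455) after exercise.

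The promoter sequences shown next show the letters of 2 motifs near the starts of 3 of the genes: the short core of the cyclic AMP response element, TGACG, to which CREB can bind, and the E-box CACGTG, to which BMAL1 with CLOCK can bind. Sequences are from RefSeq (GRCm38.p6), in windows from 250 bases before to 50 bases after each start. A promoter was searched for 7 of the 10 genes, 10 promoters in all. No promoter of Sik1, Crem or Crtc2 was searched, so whether they hold these motifs is not known here. The set of member promoters left out a chromosome that the shares over all promoters kept. Both strands were searched, and matches are descriptions of letters. The full element TGACGTCA was in 0 of the 10 promoters and in 1.79% of all 32851 promoters. The core TGACG was in 3 of 10, against 20.8% of all, and CACGTG in 1 of 10, against 7.15% of all. Capitals mark TGACG, its reverse complement CGTCA, or CACGTG. Sik3 alone held the E-box, which begins 120 bases before the start and overlaps a TGACG that begins at 116. Its other TGACG letters begin 133 and 57 bases before the start. Sik2 held a pair around its start, and 1 of the 4 Pde4b promoters held one 34 bases before its start.
Sik3, chr9:46012570-46012819, plus strand, the 250 bases before the start: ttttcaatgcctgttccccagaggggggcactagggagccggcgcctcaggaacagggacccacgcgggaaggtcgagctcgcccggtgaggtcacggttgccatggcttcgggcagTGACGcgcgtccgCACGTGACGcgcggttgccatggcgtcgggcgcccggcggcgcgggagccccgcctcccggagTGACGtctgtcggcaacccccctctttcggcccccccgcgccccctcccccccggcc
Sik2, chr9:51009052-51009080, minus strand, around the start: gcccccTGACGtcggctcaCGTCAgcgcc
Pde4b, chr4:102421510-102421538, plus strand, before 1 of its starts: atttggctgcaCGTCAattttctcatctg
The 3 genes that carry these letters, Sik2, Sik3 and Pde4b, each had an exercise difference in vehicle that did not pass the threshold. Creb1, Crtc3 and Pde4c, searched and without the letters, did not pass either, while Pde4d, also without them in the promoter searched, did. Each of Creb1, Crtc3, Pde4c and Pde4d had only 1 promoter searched, so letters near any other start would not be seen. Sik1 and Crem had no promoter searched, so no link between letters and exercise response can be read from this.

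Creb1 encodes CREB itself. It measured 11.4, 14, 10.9, 10.3 and 9.99 CPM in vehicle at rest and 14.7, 13.9, 15.7, 12.9 and 12.6 CPM after exercise. Knockout-labelled muscle held 10.9, 16.4, 14.9, 11.2 and 13.6 CPM at rest and 12.4, 16, 13.8, 14.4 and 11.5 CPM after exercise. The vehicle groups overlapped by the replicate with 14 CPM at rest, and the other groups overlapped widely. The log2 difference with exercise in vehicle was 0.30 (SE 0.13, edgeR adjusted p = 0.466), and no comparison of Creb1 passed the threshold.

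Crem encodes activators and repressors of the CREB family, among them the short ICER repressors that are made from an internal promoter under CREB control. Gene-level counts cannot tell its forms apart. It measured 7.42, 6.27, 6.5, 4.68 and 5.22 CPM in vehicle at rest and 10.6, 14.6, 20.5, 12 and 7.12 CPM in vehicle after exercise. In knockout-labelled muscle it measured 6.59, 9.08, 5.65, 6.15 and 7.45 CPM at rest and 6.83, 7.34, 8.64, 9.58 and 8.57 CPM after exercise. In vehicle, 4 of 5 exercised libraries lay above every resting one, and replicate 5 (7.12 CPM) lay inside the resting range.

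Crem rose with exercise in vehicle muscle by log2 1.10 (SE 0.21, edgeR adjusted p = 0.00935), a 2.14-fold change. In knockout-labelled muscle the difference was 0.23 (SE 0.21, adjusted p = 1), and the difference between both responses was -0.87 (SE 0.30, adjusted p = 0.748). After exercise Crem differed between genotypes by -0.66 (SE 0.20, adjusted p = 0.0562), which did not pass. That difference passed on leaving out vehicle exercise replicate 5, the lowest of its group (adjusted p = 0.00852). Its adjusted p was 0.184 without vehicle exercise replicate 3 and 0.337 without the 5 low-score libraries. The rise in vehicle had adjusted p = 0.157 without the 5 low-score libraries, at a log2 fold change of 1.01. Exons of Crem share 8.01% of their bases with the opposite-strand gene Gm6225, which averaged 1.01 CPM in vehicle at rest and 1.87 CPM after exercise.

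Crtc2 and Crtc3, the coactivators that salt-inducible kinases phosphorylate, were level across groups. Crtc2 averaged 19.4 ± 1.94 CPM in vehicle at rest, 18 ± 2.07 in vehicle after exercise, 18.1 ± 2.61 in knockout-labelled at rest and 17.5 ± 2.35 in knockout-labelled after exercise (SD, n = 5 each). Crtc3 averaged 14 ± 2.38, 12.9 ± 1.16, 13.2 ± 1.36 and 15 ± 2.79 CPM in the same order. No library of Crtc2 fell outside 14.4 to 22 CPM, and none of Crtc3 outside 11.8 to 19.4 CPM. The largest fitted log2 difference of either gene in a comparison of 2 groups was 0.21 (SE 0.13, edgeR adjusted p = 0.389), for Crtc3 between genotypes after exercise. What these counts measure is mRNA, so the place of the CRTC proteins in the cell was not measured.

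Pde4d encodes a cyclic AMP phosphodiesterase with long and short forms, and it was the second gene whose vehicle groups did not overlap. It measured 133, 111, 147, 93.9 and 120 CPM in vehicle at rest and 180, 230, 235, 228 and 218 CPM after exercise. In knockout-labelled muscle it measured 120, 128, 139, 148 and 106 CPM at rest and 178, 166, 188, 170 and 166 CPM after exercise. Exercised libraries lay above resting ones without overlap in both genotypes, and the knockout-labelled exercised libraries clustered tightly between 166 and 188 CPM.

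Pde4d rose with exercise in vehicle by log2 0.85 (SE 0.11, edgeR adjusted p = 0.000191), a 1.8-fold change of the fitted level, with 5 of 5 exercised libraries above every resting one. In knockout-labelled muscle the difference was 0.44 (SE 0.11), a 1.35-fold difference. Its unadjusted p of 0.000597 ranked 4 among all genes in that comparison, and its edgeR adjusted p was 0.813. The difference between both responses was -0.41 (SE 0.16, adjusted p = 0.78). Between genotypes Pde4d differed by 0.08 (SE 0.11) at rest and by -0.33 (SE 0.11, adjusted p = 0.0759) after exercise. Leaving out vehicle exercise replicate 1, the lowest of its group, brought the difference after exercise to -0.40 (adjusted p = 0.0353). Its adjusted p was 0.143 without vehicle exercise replicate 4 and 0.518 without the 5 low-score libraries.

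Pde4b, whose product is a further cyclic AMP phosphodiesterase, was as abundant as Pde4d at rest and varied more between libraries. It measured 86, 77.7, 108, 125 and 130 CPM in vehicle at rest and 86.4, 119, 81.2, 139 and 141 CPM after exercise. Knockout-labelled muscle held 139, 65.3, 98.7, 97.9 and 59.3 CPM at rest and 85.9, 118, 86, 116 and 74.7 CPM after exercise. All groups overlapped, and the log2 difference with exercise was 0.11 (SE 0.23) in vehicle and 0.06 (SE 0.23) in knockout-labelled muscle. No comparison of Pde4b passed the threshold.

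Pde4c, a further PDE4 gene, had the lowest CPM of the members, with 12 to 125 counts per library. It measured 4.99, 6.27, 3.19, 5.29 and 3.55 CPM in vehicle at rest and 9.54, 1.37, 10.2, 3.77 and 4.5 CPM after exercise. Knockout-labelled muscle held 3.36, 5.17, 3.21, 3.13 and 5.22 CPM at rest and 6.71, 3.78, 7.55, 2.97 and 10.7 CPM after exercise. Within each exercised group the libraries split widely: the highest was 7.5 times the lowest in vehicle and 3.61 times in knockout-labelled muscle. The fitted difference with exercise was 0.33 (SE 0.41, edgeR adjusted p = 0.918) in vehicle and 0.68 (SE 0.41, adjusted p = 1) in knockout-labelled muscle.

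The spread of Pde4c followed the slow-fibre score in the exercised groups. In vehicle at rest the low-score library held 3.55 CPM, inside the 3.19 to 6.27 CPM of the others. In exercised vehicle muscle the low-score libraries held 1.37 to 3.77 CPM and the others 4.5 to 10.2 CPM, and in exercised knockout-labelled muscle they held 2.97 to 3.78 and 6.71 to 10.7 CPM. In the model with the 4 groups and the score, whose score coefficient was read after these values were seen, Pde4c rose by log2 0.22 per unit of score (SE 0.03, edgeR adjusted p = 7.88e-06). Sik2 went the other way, at -0.05 per unit (SE 0.02, adjusted p = 0.0245). The other 8 members did not pass, among them Pde4b at -0.07 (SE 0.03, adjusted p = 0.0585) and Sik1 at 0.08 (SE 0.04, adjusted p = 0.101). The score's coefficient passed for 23.1% of all genes tested, so 2 of 10 members is close to that background. In that model Pde4c differed with exercise in knockout-labelled muscle by 1.18 (adjusted p = 0.0414). Without the 5 low-score libraries that difference was 1.06 (adjusted p = 0.246). In bulk muscle fewer fibres of a type and less RNA per fibre cannot be told apart.

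**Figure D2:**
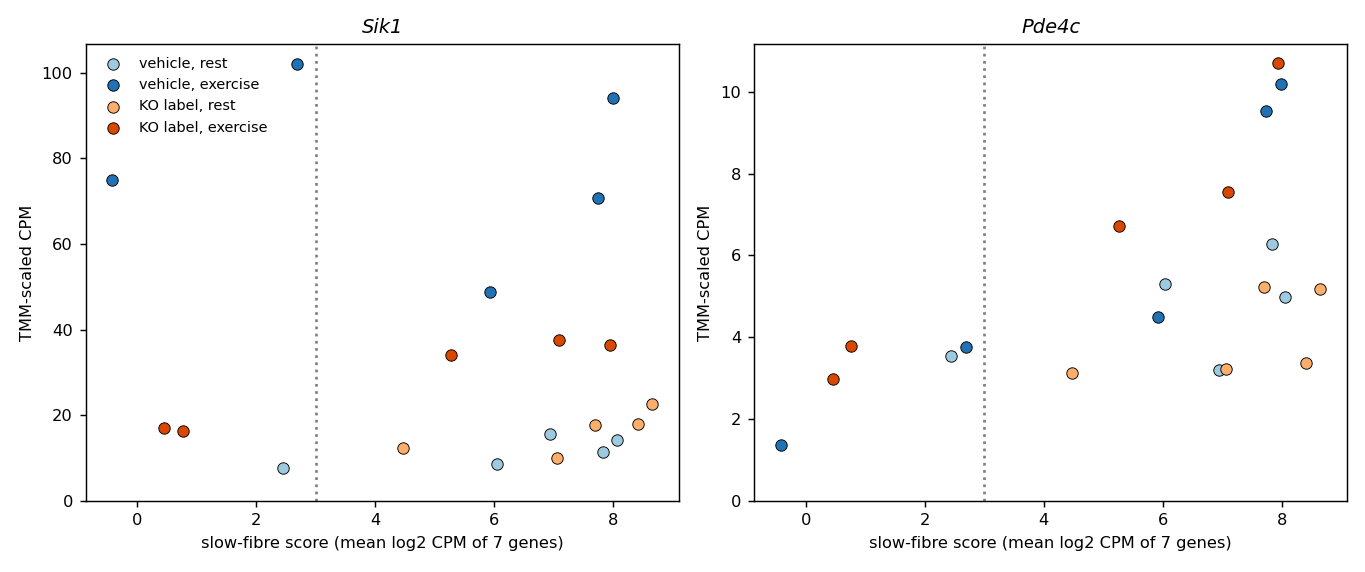
Slow-fibre score of each library (x axis, mean log2 CPM of 7 slow-fibre genes) against the level of Sik1 and Pde4c (y axis, TMM-scaled CPM), coloured by group, with a dotted line at a score of 3. Low-score libraries sit low for Pde4c in both exercised groups and low for Sik1 in the exercised knockout-labelled group (16.4 to 16.9 CPM) but not in the exercised vehicle group (74.9 to 102 CPM).

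In counts over the 10 genes, 3 passed the edgeR threshold (adjusted p under 0.05) for exercise in vehicle: Sik1, Crem and Pde4d, all higher. Of all genes tested, 0.804% passed in either direction and 0.605% were higher, and nothing is read from the count since the genes were listed with this response known. The groups did not overlap for 2 of 10 members, against 2.04% of all genes. The median log2 difference was 0.25 over the members and 0 over all genes. For exercise in knockout-labelled muscle 0 of 10 members passed by edgeR, as by DESeq2 and limma-voom, and 0% of all genes passed by edgeR. At an unadjusted p under 0.05 this comparison held 2 members, Sik1 and Pde4d, and 4.71% of all genes. Sik1 is a description here too, so this count is not read as a result. Of the members 9 of 10, Sik1 among them, were fitted higher, against 50% of all genes, with a median of 0.12 against 0 over all genes. The groups did not overlap for 1 of 10, Pde4d, against 0.848% of all genes, and nothing is read from these counts either.

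Between genotypes at rest 0 of 10 members passed by edgeR, as by DESeq2 and limma-voom, against 3.86% of all genes. Only 1 member, Sik3, had an edgeR unadjusted p under 0.05 (0.034), which ranked 1633 among the 13560 genes tested. Sik2, just above 0.05 (0.0516), ranked 2007, so this count is not read as a result. The resting groups overlapped for every member, while 5.8% of all genes did not overlap. Between genotypes after exercise 2 of 10 passed, Sik1 and Sik2, both lower, against 6.42% of all genes in either direction and 3.75% lower. Nothing is read from this count either, since Sik1 is a description here and the comparison shares the exercised vehicle libraries. The same 2 members did not overlap, against 6.29% of all genes. For the difference between both exercise responses 0 of 10 members and 0% of all genes passed by edgeR. There 3 members, Sik1, Crem and Pde4d, had an unadjusted p under 0.05, as did 5.83% of all genes. By DESeq2 1 member, Sik1, passed and by limma-voom 0, where the alternatives run called 0 to 3 of all genes. Since Sik1 is a description and this comparison also holds the exercised vehicle libraries, these counts are not read as a result.

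**Figure D3:**
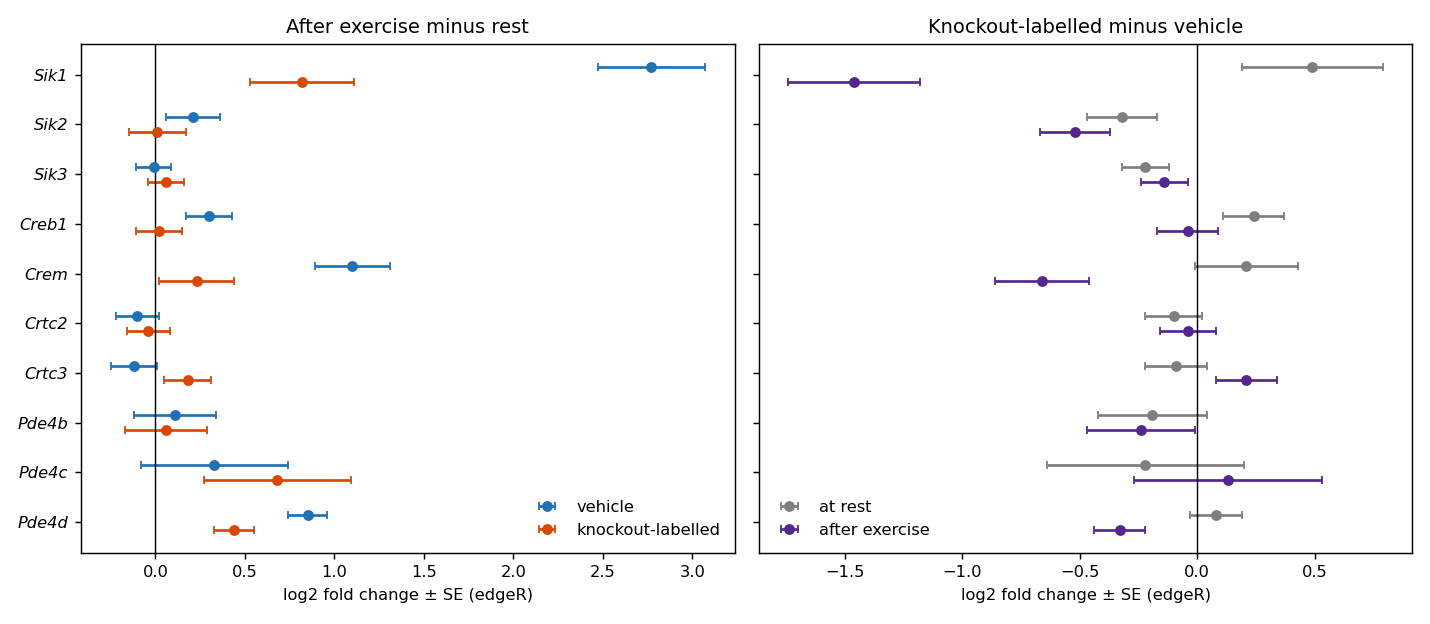
Log2 fold change (x axis) with its SE for each of the 10 genes, for exercise in vehicle, exercise in knockout-labelled muscle, and both genotype differences. Sik1, Crem and Pde4d lie to the right for exercise in vehicle (2.77, 1.10 and 0.85), and the same genes lie nearer to 0 for exercise in knockout-labelled muscle (0.82, 0.23 and 0.44).

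Levels were compared between genes per length of exon, as CPM per kb of all annotated exons of the gene in GENCODE M21, which need not be the authors' annotation. Neighbours in the order are said to differ where their mean ± SD (n = 5) did not overlap. In vehicle muscle at rest Pde4d (10.1 ± 1.71 CPM per kb) and Pde4b (9.97 ± 2.2) led and did not differ. Sik3 (5.08 ± 0.483) and Crtc2 (4.73 ± 0.474) followed below them, again without differing from each other. Sik1 (2.23 ± 0.685), Sik2 (1.71 ± 0.442), Crtc3 (1.42 ± 0.242), Crem (1.02 ± 0.184), Pde4c (0.833 ± 0.228) and Creb1 (0.824 ± 0.115) came last, each overlapping with its neighbour. At rest in vehicle Sik3 was thus the most abundant kinase of the family per length, above Sik1 and Sik2.

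After exercise in vehicle the place of Sik1 was another. Pde4d (18.2 ± 1.84 CPM per kb) was again first, and Sik1 (15.2 ± 4.08) came next, overlapping with Pde4d above it and with Pde4b (10.7 ± 2.69) below it. Sik3 (5.03 ± 0.48) and Crtc2 (4.4 ± 0.506) were lower, and Crem (2.2 ± 0.849) came beside Sik2 (1.97 ± 0.216). In exercised knockout-labelled muscle Sik1 stood at 5.51 ± 2.09 CPM per kb. There it overlapped with Pde4b (9.1 ± 1.86) above it and with Sik3 (4.56 ± 0.667) below it, while Pde4d (14.5 ± 0.776) was above them all. Sik3 was above Sik1 in knockout-labelled muscle at rest as well (4.37 ± 0.111 against 3.14 ± 0.961 CPM per kb), and in neither exercised group.

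Across the 20 libraries the 5 genes with the pattern most like Sik1, by Pearson r of log2 CPM among 11713 well-expressed genes, were Nfe2l2 (r = 0.935, Spearman rho = 0.859), Midn (0.933 and 0.928), Nr4a2 (0.925 and 0.868), Impact (0.914 and 0.895) and Btg2 (0.912 and 0.874). These coefficients are descriptions over libraries that share group membership, depth and tissue mix. Nfe2l2, the gene of the oxidative stress regulator NRF2, averaged 34.7 ± 6.28 CPM in vehicle at rest, 65.2 ± 12.7 in vehicle after exercise, 31.5 ± 1.68 in knockout-labelled at rest and 44 ± 8.63 in knockout-labelled after exercise. Impact averaged 15.4 ± 5.26, 58 ± 24.5, 18.5 ± 3.2 and 33.8 ± 10.7 CPM in the same order. Of the other members, Pde4d (r = 0.854) and Crem (r = 0.849) followed Sik1 most closely, in places 17 and 18 of all genes tested. Creb1 had r = 0.387, Pde4c 0.242, Sik2 0.237, Sik3 0.154 and Pde4b -0.0121, and the coactivators were negative (Crtc2 -0.228, Crtc3 -0.404).

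The wider pathway was set out as 97 genes in 7 lists, of which 82 passed the filter on low counts. For exercise in vehicle 4 of the 82 were called, all higher, against 0.804% of all genes, and for exercise in knockout-labelled muscle 0 of the 82 by edgeR, DESeq2 or limma-voom. Between genotypes at rest 1 was higher and 2 lower, where 1.8% of all genes were higher and 2.06% lower. After exercise 3 were higher and 6 lower, where 2.67% of all genes were higher and 3.75% lower. None of the 82 passed for the difference between both exercise responses by any of these tools, where 0% of all genes did by edgeR.

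Among CREB targets, 11 of 12 were tested and 4 rose with exercise in vehicle, with a list median of 1.5 against 0 over all genes. They were Nr4a2, Fosb, Nr4a1 and Junb, genes of nuclear receptors and AP-1 subunits that are induced within the hour. Nr4a2 rose from 0.568 ± 0.565 to 18 ± 8.25 CPM (log2 4.97, SE 0.55, edgeR adjusted p = 9.15e-05), and its log2 fold change, set against few resting counts, was 5.58 without vehicle rest replicate 5. Nr4a1 rose from 153 ± 77 to 395 ± 75.9 CPM (log2 1.37, SE 0.25, adjusted p = 0.00921), with an adjusted p of 0.292 without the 5 low-score libraries. Junb rose from 3.74 ± 1.43 to 24.7 ± 26 CPM (log2 2.72, SE 0.51, adjusted p = 0.015). The Junb call was lost on leaving out vehicle rest replicate 2 (0.0606), 4 (0.0579) or 5 (0.0603), and its log2 fold change was 1.83 without vehicle exercise replicate 4. With only the compared groups in the model the adjusted p was 0.229 for Junb and 0.106 for Nr4a1, and limma-voom gave 0.0649 for Junb. Fosb, at the lowest level of the 4, rose from 0.366 ± 0.119 to 2.54 ± 1.42 CPM (log2 2.78, SE 0.50, adjusted p = 0.00588).

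In exercised muscle the same 4 CREB targets were lower in the knockout-labelled group, and 0 of the 11 tested were fitted higher, against 52.3% of all genes. The list median was -0.86, against 0.015 over all genes. Nr4a2 differed by -2.12 (SE 0.42, edgeR adjusted p = 0.00344), Fosb by -2.39 (SE 0.47, 0.00228), Junb by -2.20 (SE 0.49, 0.0105) and Nr4a1 by -0.94 (SE 0.24, 0.0254). The Nr4a1 call was lost on leaving out vehicle exercise replicate 2 (0.0616) or 4 (0.0648), or knockout-labelled exercise replicate 4 (0.0635), and stood at 0.386 without the 5 low-score libraries. Junb differed by -1.31 without vehicle exercise replicate 4, and had an adjusted p of 0.107 with only the compared groups in the model. With exercise in knockout-labelled muscle 10 of 11 were fitted higher, against 50% of all genes, with a median of 0.61 against 0, and none passed. These genes were among the earlier known results and are no independent support for the members' pattern.

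Of the cyclic AMP and protein kinase A list 26 of 32 genes were tested, and none was called for exercise in either genotype. At rest Prkar1a, a regulatory subunit of the kinase, was higher in knockout-labelled muscle (105 ± 8.52 against 137 ± 14.1 CPM, log2 0.38, SE 0.09, edgeR adjusted p = 0.0171). Pkig, an inhibitor peptide of the kinase, was lower (51.1 ± 4.57 against 39.6 ± 2.87 CPM, -0.37, SE 0.09, adjusted p = 0.0198). After exercise both differed in the same direction without passing, Prkar1a by 0.30 (adjusted p = 0.0531) and Pkig by -0.26 (0.0865). Prkar1a lost its call without vehicle rest replicate 3 (0.0502) or 4 (0.0552) or knockout-labelled rest replicate 5 (0.0507). Pkig lost it without vehicle rest replicate 4 (0.0584) or 5 (0.0606) or knockout-labelled rest replicate 2 (0.0584).

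After exercise Prkacb, a catalytic subunit, was higher in knockout-labelled muscle (48.3 ± 7.39 against 75.3 ± 8.78 CPM, log2 0.64, SE 0.15, edgeR adjusted p = 0.00935), with an adjusted p of 0.186 without the 5 low-score libraries. The anchoring proteins Akap1 (69.8 ± 22.2 against 117 ± 29.9 CPM, adjusted p = 0.0305) and Akap7 (6.41 ± 2.02 against 10.7 ± 2.32 CPM, adjusted p = 0.0317) were higher as well. At rest these genes differed in the same direction without passing: Prkacb by 0.50 (adjusted p = 0.0592), Akap1 by 0.66 (0.0788) and Akap7 by 0.55 (0.163). The calls are thus not read as particular to exercised muscle. The Akap1 call was lost without vehicle exercise replicate 2, 4 or 5 or knockout-labelled exercise replicate 1, 3 or 5, at adjusted p from 0.0566 to 0.0787. The Akap7 call was lost without vehicle exercise replicate 2, 4 or 5 or knockout-labelled exercise replicate 3, 4 or 5, at adjusted p from 0.066 to 0.0863, and stood at 0.262 without the 5 low-score libraries.

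In the list of the LKB1 complex, 14-3-3 proteins and SIK substrates all 16 genes were tested. None was called for exercise or at rest, and 2 of 16 were lower in exercised knockout-labelled muscle, where 3.75% of all genes were lower. They were members of the LKB1 complex itself, which activates salt-inducible kinases. Stk11, the gene of LKB1, averaged 157 ± 13.8 CPM in exercised vehicle and 113 ± 19.9 in exercised knockout-labelled muscle (log2 -0.47, SE 0.10, edgeR adjusted p = 0.00588). Cab39, its scaffold subunit MO25, averaged 255 ± 15.5 and 207 ± 16.3 CPM (-0.30, SE 0.08, adjusted p = 0.0286). At rest Stk11 averaged 119 ± 8.4 CPM in vehicle and 122 ± 4.47 in knockout-labelled muscle (log2 0.03, edgeR adjusted p = 0.936). With exercise it differed by 0.39 in vehicle (adjusted p = 0.0901, not passing) and by -0.12 in knockout-labelled muscle. The resting means of Cab39 were 213 ± 20.6 and 195 ± 11.7 CPM. The genotype differences after exercise share the exercised vehicle libraries with the exercise response. Without the 5 low-score libraries Stk11 differed between genotypes after exercise by -0.30 (adjusted p = 0.0932) and Cab39 by -0.36 (0.081). Cab39 also lost its call without vehicle exercise replicate 2 (0.053) or 3 (0.0563), or knockout-labelled exercise replicate 2 (0.056) or 3 (0.0509).

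Of the 6 CREB partners, all tested, Ep300, a histone acetyltransferase that CREB recruits, was lower in knockout-labelled muscle at rest (56.8 ± 6.98 against 43.7 ± 5.01 CPM, log2 -0.38, SE 0.10, edgeR adjusted p = 0.0325). Its call was lost without vehicle rest replicate 1, 2, 3 or 5 or knockout-labelled rest replicate 1, 4 or 5, at adjusted p from 0.0526 to 0.101. After exercise Ep300 differed by -0.33 (adjusted p = 0.053), which did not pass. None of the 9 tested further cyclic AMP phosphodiesterases, the 8 AMPK-related kinases or the 6 calcineurin genes was called in any of the 5 comparisons. For each of these lists the 2 genes with the smallest unadjusted p are named, each in the comparison where its own p was smallest. Among phosphodiesterases they were Pde7a for exercise in vehicle (log2 0.29, edgeR adjusted p = 0.331) and Pde4a between genotypes at rest (0.37, 0.405). Among kinases they were Mark4 between genotypes after exercise (-0.36, 0.113) and Snrk at rest (-0.41, 0.202), of which Snrk passed without knockout-labelled rest replicate 5 (0.0306). Among calcineurin genes they were Ppp3ca between genotypes after exercise (0.27, 0.243) and Rcan1 at rest (0.48, 0.616).

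**Figure D4:**
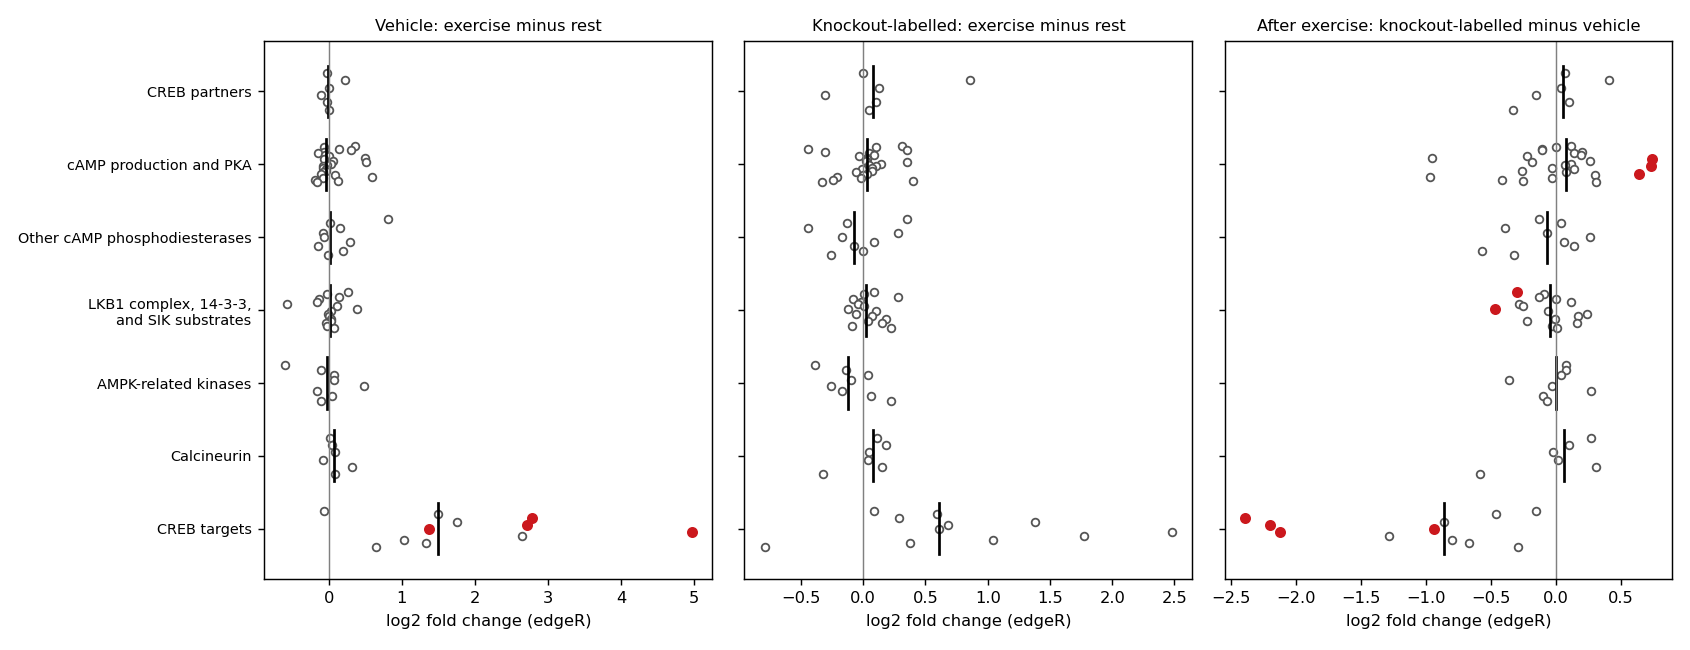
Log2 fold change (x axis) of each tested gene of the 7 pathway lists, in panels for exercise in vehicle, exercise in knockout-labelled muscle and the genotype difference after exercise. Red points passed an adjusted p under 0.05 and bars mark list medians. The CREB targets have a median of 1.5 for exercise in vehicle and -0.86 between genotypes after exercise.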

How the data were processed

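The authors deposited 1 table of whole-number counts per gene symbol for all 20 samples, not normalized. The submitters' processing notes name STAR 2.7.8a, Partek, DESeq2 and the builds mm10 and GRCm39, without roles. The counting program, strand setting and annotation are not given in the sources used here. Per the labels' protocols, extraction used Trizol and Qiagen columns and the library kit came from Illumina.

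Groups came from the treatment labels. The descriptions of the exercised knockout-labelled samples speak of training, their titles and treatments of acute exercise, and they were analysed as acute exercise. The low-count filter was edgeR's filterByExpr (version 4.0.16, minimum count 10), libraries were scaled by TMM, and 1 robust quasi-likelihood model with 4 group means was fitted to all 20 samples in R 4.3.3. P-values were adjusted by Benjamini-Hochberg across 13560 genes, and a gene was called at an adjusted p under 0.05. SEs were derived from the F statistics, and log2 CPM used a prior count of 2.

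The members and lists were chosen with earlier results of these data known, so p-values beside them are not independent evidence. Genes named were the members, the targeted gene, the 5 genes most like Sik1 (mean log2 CPM 1 or more), and per list and comparison up to 4 called genes by smallest p, or the 2 with the smallest p where a list had none. No 2 libraries of a group agreed within sampling noise. For tissue mix and depth, 48 exact two-sided permutation tests between groups, 44 of marker scores and 4 of library totals, gave a lowest p of 0.0556 (lowest adjusted 0.952), where the smallest possible is 0.00794. Scripts were tested on simulated counts. DESeq2 1.42.0, limma-voom (limma 3.58.1), other scalings, filters and thresholds, a replicate block, a slow-fibre covariate and left-out replicates were tried.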

Additional observations from a re-analysis of the deposited data

How the results depend on the processing

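None of the results called in the main analysis changed direction under an alternative that was run. The count of members called between genotypes after exercise, 2 in the main analysis, was 1 with upper-quartile scaling, library-size scaling, a required absolute log2 fold change of 1, or without the 5 low-score libraries (an alternative chosen after seeing the data). Without the 5 low-score libraries Sik1 was the member no longer called, and in the other alternatives just named it was Sik2. It was 4 with DESeq2, with the slow-fibre score as covariate, or at an adjusted p under 0.1, and 1 to 3 with 1 replicate left out. With the replicate block it was 1, since Sik2 had an adjusted p of 0.0625, and no other member's call changed. Whether same-numbered samples pair cannot be settled from their deviations: 15 of 30 pairs had a correlation above 0.1, over a range from -0.448 to 0.437. Between the exercised groups r was 0.264, 0.437, 0.412, 0.268 and 0.0185 for replicates 1 to 5. There the exercised vehicle libraries correlated best with knockout-labelled replicates 5, 4, 5, 2 and 4 in turn. In 7 of the 30 comparisons the first library correlated best with its own number in the other group. For exercise in knockout-labelled muscle the slow-fibre covariate called 1 member, Pde4c, and for the difference between both responses DESeq2 called 1, Sik1, whose values are a description. Members called for exercise in vehicle stayed at 2 to 3. The rise of Crem there had an adjusted p of 0.0806 with only the compared groups in the model, and that of Pde4d was lost only at the required log2 fold change of 1. Pathway genes called for exercise in vehicle, 4 in the main analysis, were 8 with DESeq2 or the covariate and 3 to 6 with 1 replicate left out. At rest, 3 in the main analysis, they were 6 with DESeq2, 5 with only the compared groups, 8 with the covariate, 6 at 0.1, 0 with the fold requirement, 5 without the low-score libraries and 1 to 4 with 1 replicate left out. After exercise, 9 in the main analysis, they were 12 with DESeq2, the covariate or 0.1, 3 with the fold requirement, 4 without the low-score libraries and 6 to 9 with 1 replicate left out. The cause of these changes was not tested. Of the 7 members with a searched promoter, those with a motif rose from 0 with TGACGTCA to 3 with TGACG. Over all genes, calls ran from 52 to 248 for exercise in vehicle (109 in the main analysis), 0 to 6 for exercise in knockout-labelled muscle, 134 to 845 at rest (523), 217 to 1415 after exercise (870) and 0 to 3 for the difference between responses. The member with the fewest counts was Pde4c, at 12 to 125 a library.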
